A study of Rattus norvegicus with 60 samples.

Results

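The miRs of the rat retina were compared at the end of ischemia, with no time for reperfusion. All samples of the comparison were taken, which gave 12 of the 60 arrays of the series: 6 from IR retinas at 0 h and 6 from sham control retinas at 0 h. All 350 rat miRs on the array were considered. The animals were male Long Evans hooded rats of 250 to 300 g, and their age was not given. Both groups were anesthetized with sodium pentobarbital, received tetracaine and tropicamide drops and had the anterior chamber of 1 eye cannulated. In the IR group the intraocular pressure was held at 110 mmHg for 60 min, and in the sham control group it was not raised. Whole retinas were collected at once, the total RNA had an RNA integrity number above 8, and 100 ng was labelled with Cy3 and hybridized on a 1-colour Agilent rat miRNA array, 1 rat per array. The retina was not split into cell types, so that fewer cells of a type and less RNA per cell cannot be told apart.

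A miR is a short RNA cut from one arm of a hairpin transcript, and it lowers the output of mRNAs that pair with its seed, the bases near its 5′ end. The other arm of the hairpin, the passenger or star strand, usually accumulates less. Raised intraocular pressure stops the blood flow of the retina and deprives it of oxygen and nutrients, and many mature miRs are long-lived. The miR-183/96/182 cluster is typical of photoreceptors, miR-124 and miR-9 of neurons, miR-204 and miR-211 of the pigment epithelium, and miR-210 is the best known target of the hypoxia-inducible factor.

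The mature sequences of the miRs with the clearest differences are shown first, since the results refer back to them. Each was read from RefSeq (assembly GRCr8), is written 5′ to 3′ and has its seed, bases 2 to 8, in capitals. The first 4 and the next 2 were higher in IR than in sham control and share the run GUGUG outside or within the seed. The following 2 were also higher and are 3′ arms of the miR-125 hairpins, shown with their own 5′ arms, which did not pass the test. The last is miR-1, which has the seed of miR-206. The sequences of miR-493 and miR-291a-3p were added after their values were seen.
rno-miR-539: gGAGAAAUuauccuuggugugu
rno-miR-206: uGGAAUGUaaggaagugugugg
rno-miR-672: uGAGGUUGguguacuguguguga
rno-miR-466b: uAUGUGUGuguguauguccaug
rno-miR-493: uGAAGGUCuacugugugccag
rno-miR-291a-3p: aAAGUGCUuccacuuugugugcc
rno-miR-125a-3p: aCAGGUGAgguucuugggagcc
rno-miR-125b*: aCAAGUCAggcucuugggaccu
rno-miR-125a-5p: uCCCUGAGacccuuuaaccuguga
rno-miR-125b-5p: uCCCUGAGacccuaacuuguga
rno-miR-1: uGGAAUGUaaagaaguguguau

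The genes of the 8 miRs of these that were called lie on 6 chromosomes. By the positions RefSeq gives in GRCr8, miR-539 is at chr6:134563606-134563627 on the plus strand within the lncRNA LOC120103623, and miR-493 is at chr6:134314784-134314804 on the plus strand in no other annotated gene. miR-206 is at chr9:30590747-30590768 on the plus strand within the lncRNA LOC120094648. miR-672 is at chrX:73192351-73192373 on the minus strand within Nexmif, and miR-466b has 2 loci, of which chr17:72942513-72942534 on the minus strand lies within Sfmbt2. miR-291a-3p is at chr1:74879767-74879789 on the minus strand, inside the span of Nlrp12. The 3′ arm of miR-125a is at chr1:67350727-67350748 on the plus strand within Spaca6, and miR-125b*, which RefSeq lists as the 3′ arm of miR-125b-2, is at chr11:29732627-29732648 on the plus strand within the lncRNA LOC103693508. Whether a locus is exonic or intronic was not read from these gene spans.

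The IR arrays were dimmer than the sham control arrays. Brightness was taken as the log2 total signal at the 75th percentile of the 57 miRs that no array of the series missed. It was 8.59 at the lowest, 9.15 at the median and 10.88 at the highest in IR, and 9.76, 10.41 and 10.91 in sham control. The difference was -1.06 (exact two-sided permutation p = 0.0303, 0.121 after Benjamini-Hochberg adjustment over 4 array measures), and it was -0.83, -0.80 and -2.27 within the 3 scans of the slides. No slide held arrays of both groups at 0 h, so that slide and group cannot be told apart among these 12 arrays alone. Between 97 and 179 miRs were detected per IR array and between 118 and 224 per sham control array, and these counts did not pass the test (exact two-sided permutation p = 0.461). The difference in mean counts was -2.33, -4.5 and -80 within the 3 scans. The last rests on 1 array per group, IR replicate 6 at 144 and sham control replicate 6 at 224. Detection on at least 1 of the 12 arrays was seen for 226 of the 350 miRs, on all 12 for 92 and on none for 124, and 94 were detected on more sham control than IR arrays against 25 the other way. Of the 94, 35 were detected on 1 sham control array and no IR array. The SD of the negative controls was 2.205 and 1.94 on replicate 6 of IR and of sham control, and 6.43 to 7.64 on the other arrays at 0 h. By the median correlation with the other 11 arrays, across miRs, which are not independent replicates, sham control replicate 1 at 0.939 and IR replicate 2 at 0.930 were lowest, against 0.948 to 0.978 for the rest. By the median absolute log2 distance from the median of the others, IR replicate 4 at 0.242, sham control replicate 1 at 0.226 and sham control replicate 6 at 0.222 were highest, and IR replicate 2 was at 0.190.

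Few miRs differed at the end of ischemia. Signals were scaled to equal brightness and are given as log2 of the scaled total signal, with a floor of 2.63, and each difference is IR minus sham control on that scale, where 1 is a factor of 2. Of 159 miRs tested, 11 passed a fold change of at least 2 with an adjusted p of at most 0.05 (6.92%; limma over all 60 arrays with Benjamini-Hochberg adjustment). Of these, 10 were higher in IR (6.29%) and 1 was lower (0.629%). In 7 miRs, all higher, the 6 IR values were all greater than the 6 sham control values (4.4%), and 20 passed the adjusted p with any fold (12.6%), 17 higher and 3 lower. The miRs higher in IR were miR-539, miR-206, miR-672, miR-466b, miR-493, miR-291a-3p, miR-125a-3p, miR-125b*, let-7d* and miR-378*, and the lower one was miR-375.

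**Figure D1:**
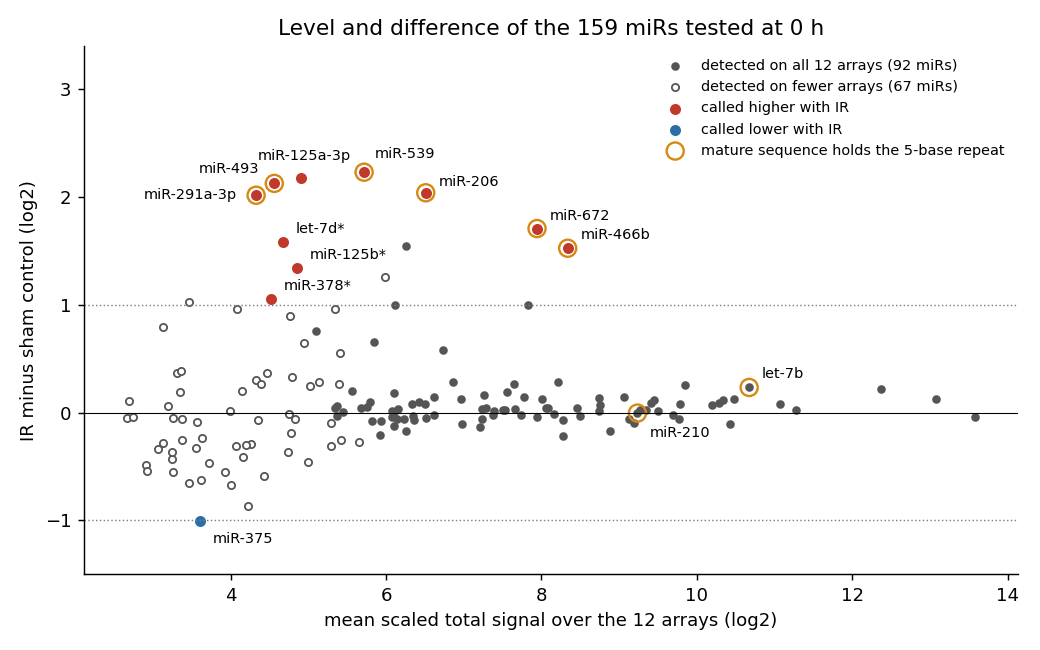
Each point is 1 of the 159 miRs tested, with its mean log2 scaled signal over the 12 arrays on the x axis and the log2 difference of IR minus sham control at 0 h on the y axis; dotted lines mark a factor of 2, the called miRs are coloured and named, and rings mark the 8 miRs whose mature strand holds GUGUG. Most points lie near 0, with a median of 0.02 over the 159, and the called miRs stand above 1 except miR-375 at -1.01.

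Most miRs detected on every array differed little. The 92 miRs detected on all 12 arrays had differences between -0.22 and 1.71 with a median of 0.04, and 84 of them lay within 0.5 of 0. Their median standard error was 0.11. Only 2 of these 92, miR-672 and miR-466b, were among the called miRs. The other 9 called miRs were undetected on at least 1 array, and their values at or near the floor have no order among themselves.

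Of the 9 miRs called higher that were matched to a sequence, 6 carry GUGUG in the mature strand. miR-539, from the imprinted Dlk1-Dio3 region, was 6.18 at the lowest, 6.82 at the median and 7.63 at the highest in IR, and 2.63, 4.65 and 6.08 in sham control. The groups did not overlap, and the difference was 2.23 ± 0.37 (SE, n = 6 per group), a fold of 4.69 (limma adjusted p = 1.12e-05). It held within each scan, at 2.57, 2.05 and 1.56.

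miR-206, a miR of skeletal muscle, ranged from 6.92 through a median of 7.48 to 8.35 in IR and from 2.63 through 5.75 to 7.26 in sham control. The groups overlapped: 3 of the 6 IR arrays lay above all sham control arrays, of which replicate 1 was at the floor and replicate 2 at 7.26. The difference was 2.04 ± 0.42 (SE, n = 6; limma adjusted p = 0.00031), and 1.47 without sham control replicate 1. The other muscle miRs on the array were too seldom detected to be tested. miR-1, detected on 2 IR arrays and 1 sham control array, was at the floor on all sham control arrays and ranged from 2.63 through a median of 4.002 to 5.90 in IR, with 5 IR arrays above the floor. miR-1*, detected on 1 array of each group, was likewise at the floor in sham control and reached 4.98 in IR, with 3 IR arrays above the floor. The floor was set after scaling, so that being above it is not detection. On IR replicate 4, undetected miR-1 and miR-1* had unscaled signals of 5.23 and 3.75 and lay above the floor. On sham control replicate 6, both were detected, at 11.22 and 11.09 unscaled, and lay at the floor. These counts above the floor thus do not show a group difference. miR-133a was detected on none of the 12 arrays, and miR-133b and miR-499 on 1 sham control array each.

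miR-672, encoded within Nexmif, ranged from 8.30 through a median of 8.70 to 9.505 in IR and from 4.77 through 7.36 to 8.47 in sham control, with 4 IR arrays above all sham control arrays. The difference was 1.71 ± 0.34 (SE, n = 6; limma adjusted p = 0.000234). miR-466b, of the large repeat-like cluster within Sfmbt2, had 8.65, 8.97 and 9.70 as its lowest, median and highest values in IR and 5.33, 7.89 and 8.72 in sham control. Here 5 IR arrays exceeded all sham control arrays, and the difference was 1.52 ± 0.32 (SE, n = 6; limma adjusted p = 0.000326). Sham control replicate 1 was the lowest array for both, and without it the differences were 1.24 and 1.07, each still called.

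miR-493, of the same imprinted region as miR-539, was detected on 5 IR arrays and 1 sham control array. Its values were 3.35, 6.96, 6.26, 5.64, 5.67 and 5.86 on IR replicates 1 to 6 and 2.63, 3.12, 4.50, 3.50, 3.71 and 3.52 on sham control replicates 1 to 6. All IR arrays but replicate 1 lay above the sham control arrays, with a difference of 2.13 ± 0.42 (SE, n = 6; limma adjusted p = 0.000234). miR-291a-3p, of a cluster known from embryonic stem cells, was at the floor on IR replicate 1 and between 5.13 and 6.74 on the other IR arrays, against 2.63 to 3.86 in sham control. Its difference was 2.02 ± 0.46 (SE, n = 6; limma adjusted p = 0.00129). With slide as a block, miR-493 had 1.94 (adjusted p = 0.0652) and miR-291a-3p 1.88 (adjusted p = 0.149). On leaving out 1 array of either group the adjusted p of limma was between 1.32e-06 and 0.00173 for miR-493 and between 8.94e-06 and 0.00787 for miR-291a-3p.

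The 6 miRs had the same extreme arrays. In each of them IR replicate 2 was the highest IR array and sham control replicate 1 the lowest sham control array, whereas over all 159 miRs these were the extreme arrays in 25 and 54. The run GUGUG was picked after these values were seen, so that the following counts describe the miRs and carry no test. It was searched on the mature strand only, and overlapping copies were counted as 1 match. Of the 159 miRs, 130 were matched to a RefSeq mature sequence, and 8 of these hold GUGUG (6.2%; 3.17% of the 693 distinct mature names in RefSeq). Their median difference was 1.86, with 6 of 8 called higher, beside 0.02 over the 122 matched miRs without it, of which 3 were called higher and 1 lower. In 5 of the 6 called miRs the run ends within 4 bases of the 3′ end, and in miR-466b it lies in and just after the seed. The 2 exceptions were miR-210, with a difference of -0.01, and let-7b, with 0.23 (limma adjusted p = 0.05001). Apart from this run the called miRs share no seed: the 10 called and matched miRs have 10 distinct seeds. miR-1, which shares both the seed and a GUGUG with miR-206, was too seldom detected to be tested.

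**Figure D2:**
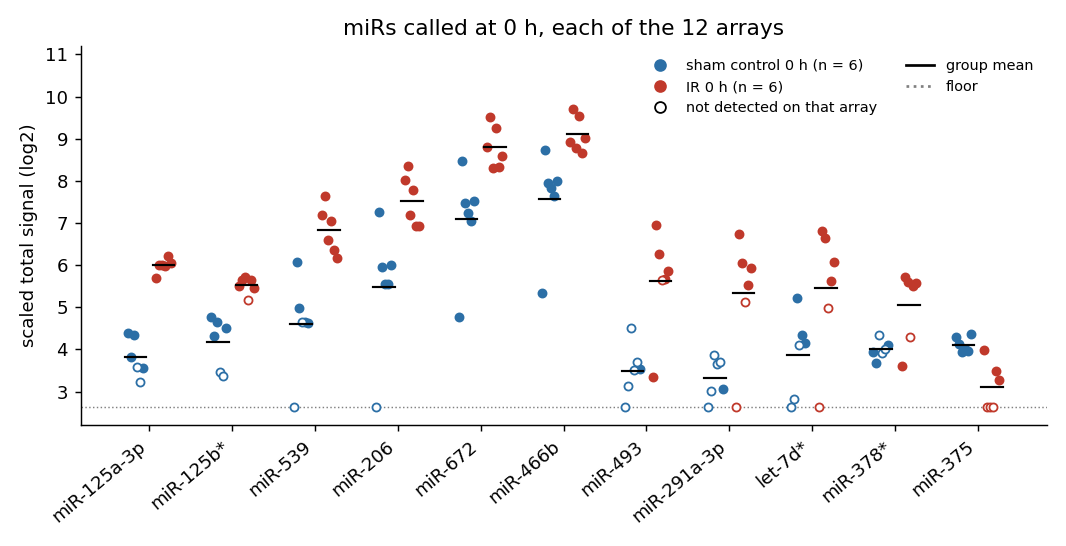
The log2 scaled total signal of the 11 called miRs is plotted for each of the 12 arrays at 0 h, with IR and sham control in separate colours, open symbols for arrays on which the miR was not detected, a black line for each group mean and the floor of 2.63 as a dotted line. The groups separate fully for miR-539, miR-125a-3p and miR-125b*, and overlap through 1 or more arrays for the other 8.

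The 3′ arms of the miR-125 hairpins rose while the 5′ arms did not pass the test; the difference between arms was not tested. miR-125a-3p had values of 5.70, 5.99, 6.00, 5.98, 6.22 and 6.05 on IR replicates 1 to 6, against 4.38, 3.83, 4.35, 3.57, 3.23 and 3.57 in sham control. The groups did not overlap after scaling, and all 6 IR arrays also lay above all 30 sham control arrays of the series. Before scaling the groups at 0 h overlapped, at 30.24 to 119.9 signal units in IR and 12.67 to 41.38 in sham control. The detection flag was set on 6 IR arrays and on 4 of the sham control arrays at 0 h. Both groups lay under the highest detection limit (log2 6.50), and the smallest difference over the alternative settings was 0. The difference was 2.17 ± 0.29 (SE, n = 6), a fold of 4.50 (limma adjusted p = 9.43e-08), and 1.71, 2.70 and 2.49 within the scans. miR-125b* had 5.17, 5.58 and 5.71 as its lowest, median and highest values in IR and 3.37, 4.41 and 4.77 in sham control. Again the groups did not overlap after scaling, and all 6 IR arrays lay above all 30 sham control arrays. Before scaling the groups at 0 h overlapped, at 18.24 to 105.4 signal units in IR and 11.73 to 54.24 in sham control. IR replicate 4, undetected at 18.24 unscaled, was thus placed above sham control replicate 1, detected at 54.24. The flag was set on 5 IR arrays, all but replicate 4, and on 4 of the sham control arrays at 0 h. miR-125b* also lay under 6.50 in both groups, and its smallest difference over the alternative settings was 0. Its difference was 1.34 ± 0.34 (SE, n = 6; limma adjusted p = 0.00325), which with slide as a block was 0.71 (adjusted p = 0.237). On leaving out 1 array its adjusted p of limma was between 0.00262 and 0.0164.

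The 5′ arms are the abundant strands of these hairpins and are found in glia and progenitors. miR-125a-5p ranged from 7.31 to 7.72 in IR and from 7.36 to 7.73 in sham control, a difference of 0.02 ± 0.10 (SE, n = 6; limma adjusted p = 0.916). miR-125b-5p ranged from 8.74 to 8.87 and from 8.84 to 9.19, a difference of -0.18 ± 0.10 (SE, n = 6; limma adjusted p = 0.248). The groups overlapped in both, though for miR-125b-5p 5 of the 6 IR arrays lay below all sham control arrays. Against the later sham control groups miR-125b-5p differed by -0.38 (limma adjusted p = 8.67e-05) and miR-125a-5p by -0.04 (limma adjusted p = 0.75). The 5′ arms share the seed CCCUGAG, while the 3′ arms have different seeds, CAGGUGA and CAAGUCA, and share a run of 8 bases, UCUUGGGA, after them. Their cluster partners did not pass the test. Beside miR-125a, let-7e had a difference of 0.11, miR-99b of -0.46 and the 3′ arm miR-99b* of 0.79 (limma adjusted p = 0.0757, detected on 4 IR and 2 sham control arrays). Beside miR-125b-2, let-7c had 0.13 and miR-99a 0.01; these neighbours were looked up with their values known. Over the passenger strands on the array 3 of 18 tested were called higher (miR-125b*, let-7d* and miR-378*), with a median of -0.02.

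let-7d* and miR-378*, both star strands, were higher on most but not all IR arrays. let-7d* had 2.63, 6.81, 6.63, 4.97, 5.62 and 6.08 on IR replicates 1 to 6 and 2.63, 2.82, 5.22, 4.10, 4.33 and 4.16 on sham control replicates 1 to 6. Its difference of 1.58 ± 0.55 (SE, n = 6; limma adjusted p = 0.0494) passed by a narrow margin, and it was lost on leaving out any one of IR replicates 2, 3, 5 and 6 or sham control replicates 1, 2, 4 and 6 (adjusted p from 0.0586 to 0.166). miR-378*, from an intron of Ppargc1b, ranged from 3.61 through a median of 5.53 to 5.71 in IR and from 3.68 through 3.98 to 4.35 in sham control. The difference was 1.05 ± 0.31 (SE, n = 6; limma adjusted p = 0.0127), with IR replicate 1 below all sham control arrays and 4 IR arrays above them. Leaving out any one of IR replicates 2, 3, 5 and 6 or sham control replicate 2 took it below a factor of 2, at 0.92 to 0.99. With slide as a block let-7d* had 1.41 (adjusted p = 0.357) and miR-378* 0.85 (adjusted p = 0.309). The opposite arms, let-7d at 0.08 and miR-378 at -0.10, did not pass the test.

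Array brightness moved with the group, and the called miRs differed in how they went with it. IR replicate 1 was the 1 IR array as bright as the sham control arrays, at 10.88. On this array miR-493, miR-291a-3p, let-7d* and miR-378* were within or below the sham control range, at 3.35, 2.63, 2.63 and 3.61. By contrast miR-539 was at 7.19, miR-125a-3p at 5.70 and miR-125b* at 5.51 there, higher than on any sham control array, and so were miR-206, miR-672 and miR-466b at 8.01, 8.80 and 8.92. With brightness as a covariate 10 miRs were called, of which 7 were among the 11: miR-125a-3p at 2.07, miR-125b* at 1.61, miR-206 at 2.28, miR-466b at 1.39, miR-493 at 1.40, miR-539 at 2.34 and miR-672 at 1.70. The other 4 did not pass: miR-291a-3p at 1.13 (limma adjusted p = 0.0995), miR-375 at -0.69 (0.064), miR-378* at 0.47 (0.551) and let-7d* at 0.55 (0.749). On leaving out 1 array, without the covariate, the adjusted p was between 0.000137 and 0.00811 for miR-375, between 0.00059 and 0.0569 for miR-378* and between 0.00175 and 0.166 for let-7d*.

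**Figure D3:**
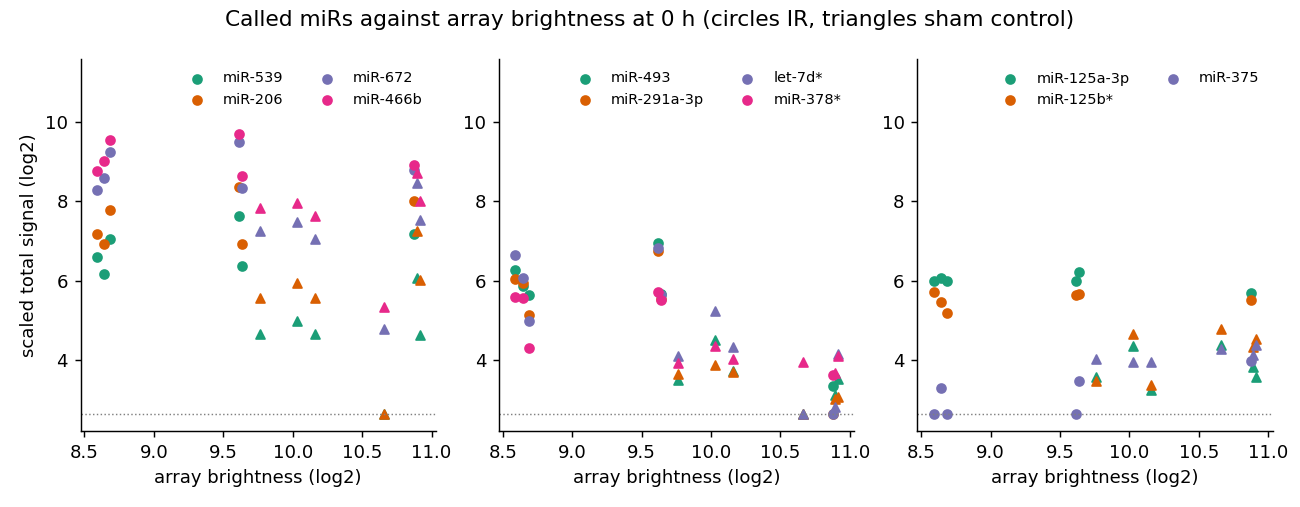
The log2 scaled signal of called miRs is plotted against array brightness (log2) for the 12 arrays at 0 h, with circles for IR, triangles for sham control and a colour for each miR. At the right end, where IR replicate 1 (10.88) lies among the sham control arrays, miR-539 and miR-125a-3p remain above the sham control points while miR-493 and let-7d* fall to 3.35 and 2.63.

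miR-375 was the only miR called lower. It is best known from pancreatic islets and other endocrine cells. Its values were 3.98, 2.63, 2.63, 2.63, 3.48 and 3.28 on IR replicates 1 to 6 and 4.28, 4.13, 3.94, 4.01, 3.96 and 4.38 on sham control replicates 1 to 6. It was detected on 3 IR arrays and all 6 sham control arrays, and 5 of 6 IR arrays lay below all sham control arrays. The difference was -1.01 ± 0.23 (SE, n = 6; limma adjusted p = 0.0013), with -1.03, -0.93 and -1.09 within the scans. This is a faint miR near the floor: without any one of IR replicates 2, 3 or 4 it was -0.91, and without sham control replicates 1 or 6 it was -0.98 or -0.96, each short of a factor of 2.

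A further 4 miRs had no overlap between the groups but stayed below a factor of 2. miR-347 ranged from 5.92 through a median of 6.63 to 7.11 in IR and from 5.26 through 5.71 to 5.85 in sham control, a difference of 1.00 ± 0.20 (SE, n = 6; limma adjusted p = 0.000234) and a fold of 1.99. miR-181d, of a family expressed in the inner retina, ranged from 5.48 to 6.18 and from 4.95 to 5.33, a difference of 0.55 (limma adjusted p = 0.00936). let-7i, of the let-7 family of differentiated cells, ranged from 9.85 to 10.20 and from 9.56 to 9.80, a difference of 0.25 (limma adjusted p = 0.0101). miR-20a, of the miR-17-92 cluster, ranged from 6.86 to 7.13 and from 6.64 to 6.85, a difference of 0.29 that did not pass (limma adjusted p = 0.0757). The directions of the last 2 turned when the scaling used all rat miRs, at -0.065 for let-7i and -0.035 for miR-20a, where the median of all 159 moved to -0.29.

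The remaining miRs that passed the adjusted p stayed below a factor of 2 and were singled out after their values were seen. miR-328, with 6.75, 8.48 and 9.04 as lowest, median and highest in IR and 6.77, 7.40 and 7.75 in sham control, had a difference of 0.99 (limma adjusted p = 0.006). Lower differences were seen for miR-382 at 0.89, miR-598-3p at 0.65 and miR-331 at 0.58. On the other side, miR-379 was at -0.86 and the neuronal miR-138 at -0.67, the latter detected on 1 IR and 5 sham control arrays. miR-328, miR-331 and miR-347 belong to a list of 6 miRs, with miR-207, miR-333 and miR-346, that was drawn up from their link to array brightness in these same arrays. All 6 had differences above 0 with a median of 1.01, and none was called, while miR-207 spanned 3.11 on IR replicate 1 and a mean of 7.03 ± 2.02 (SD, n = 6) over the IR arrays.

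The leading photoreceptor and neuronal miRs were detected on all 12 arrays and did not pass the test. miR-183 ranged from 12.99 to 13.21 in IR and from 12.82 to 13.13 in sham control, a difference of 0.12 ± 0.09 (SE, n = 6). miR-96 had 0.22 ± 0.11 and miR-182 had -0.06 ± 0.10 (SE, n = 6), so that 0 of the 3 photoreceptor miRs were called, with a median of 0.12. Of 9 neuronal miRs tested, 5 were detected on all 12 arrays, 0 were called and 1, miR-138 at -0.67, passed the adjusted p, with a median of -0.04. miR-124 differed by -0.04 ± 0.11 and miR-9 by 0.03 ± 0.15 (SE, n = 6). None of 5 glial miRs was called, with a median of -0.06, and miR-99b, the 1 of them not detected on all 12 arrays, had -0.46.

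miRs known to respond to hypoxia, neuronal activity or injury did not pass the test at this time. miR-210 ranged from 8.97 through a median of 9.24 to 9.45 in IR and from 9.004 through 9.26 to 9.39 in sham control, and its difference was -0.01 ± 0.13 (SE, n = 6; limma adjusted p = 0.982). The activity-regulated pair miR-132 and miR-212 had -0.13 ± 0.11 and 0.27 ± 0.18 (SE, n = 6). The injury miR-21 had 0.04 ± 0.16 and miR-146b had 0.0046 ± 0.12 (SE, n = 6), and miR-34a, a target of p53, had 0.16 ± 0.08 (SE, n = 6).

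Of the markers of other tissues that could be tested, miR-206 was the only one to pass. The red cell miRs miR-451 and miR-144 were detected on none of the 12 arrays, as were the leukocyte miR-142-3p, the smooth muscle miR-145 and the corneal miR-205. The myeloid miR-223, detected on 1 array of each group and not tested, ranged from 2.66 through a median of 3.76 to 6.02 in IR and from 2.63 through 2.98 to 3.62 in sham control, with 3 IR arrays above all sham control arrays. At most 1 of these 3 detected it, so that, as for miR-1, this count does not show a group difference. Of the pigment epithelium miRs 0 of 3 were called, with miR-204 at 0.11 ± 0.10 and miR-211 at 0.14 ± 0.12 (SE, n = 6). Of the vascular miRs 0 of 3 were called, with the endothelial miR-126 at -0.19 ± 0.16 (SE, n = 6). miR-184, of the lens and cornea, varied between rats more than between groups, from 2.97 to 8.07 in IR and from 3.59 to 7.61 in sham control (difference 0.96 ± 1.08, SE, n = 6). The summed muscle list ranged from 7.34 to 8.68 in IR and from 5.22 to 7.52 in sham control, carried by miR-206, its only tested member.

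**Figure D4:**
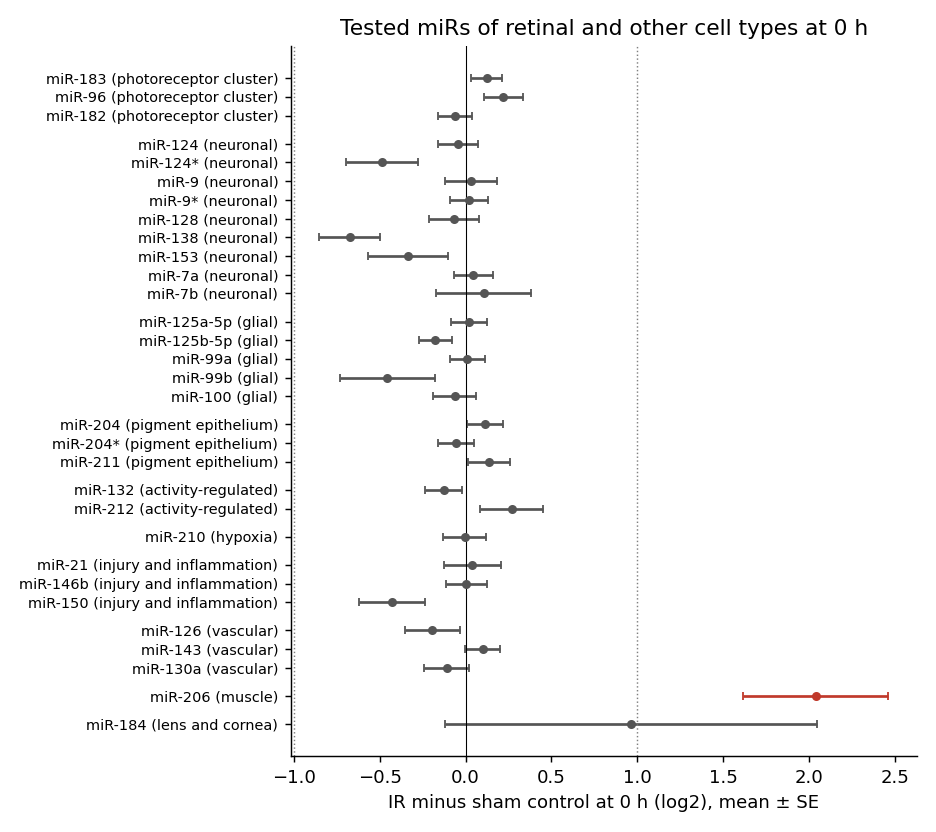
The log2 difference of IR minus sham control at 0 h is drawn with its SE (limma, 6 arrays per group) for the tested miRs of the retinal and other cell type lists, with dotted lines at a factor of 2. Of those drawn, miR-206 of the muscle list at 2.04 is the one beyond the lines that was called, and the photoreceptor, neuronal and glial miRs lie between -0.67 and 0.22.

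The lists of let-7, miR-29, miR-30, miR-15/16, miR-17 seed and miR-23/27/24 miRs, which hold no star strands, included no called miR. All 8 let-7 miRs tested had a difference above 0, from 0.07 to 0.25, with a median of 0.12 against 0.02 over all 159, and 0 were called, 1 passing the adjusted p; let-7i was at -0.065 when scaled over all rat miRs. None of the miR-29 (3 tested), miR-30 (5), miR-15/16 (4) and miR-23/27/24 (5) miRs passed the test, and their medians lay between -0.03 and 0.08. The 4 tested miR-17 seed miRs, a family linked to proliferation, had a median of 0.46 with 0 called. Of the imprinted chromosome 6 region 2 of 20 tested were called, both higher (miR-539 and miR-493), with a median of -0.06 and 11 of the 20 below 0.

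The differences at 0 h were then placed beside those of the 4 later groups, each from other rats. miR-539, miR-206, miR-672 and miR-466b had differences of 2.60, 2.33, 1.74 and 1.26 at 2 h and of 2.28, 1.91, 1.66 and 1.64 at 24 h, and these were the 4 of the 11 that were called again at 2 h, where 8 miRs were called in all (5.03%). At 24 h 10 of the 11 were called again in the same direction, at 48 h 10 and at 7d 9, out of 29, 22 and 29 calls (18.2%, 13.8% and 18.2%). miR-493, miR-291a-3p, let-7d*, miR-378* and miR-125b* were detected on all 6 arrays of neither 0 h group. They were tested only because a group of another time detected them on all 6, so that their later calls are not independent of the filter. With detection on all 6 arrays of a 0 h group required, 6 miRs were called at 0 h. Of these, miR-539, miR-206 and miR-125a-3p met this filter only through IR, where they were higher, and miR-375 only through sham control. Their calls are thus not independent of that filter either. Over the 92 miRs detected on all 12 arrays, 2 were called, miR-672 and miR-466b. miR-493, miR-291a-3p, let-7d* and miR-378* had smaller differences at 2 h, of 0.99, 0.72, -0.75 and -0.16. Those at 24 h were larger, at 3.03, 3.27, 2.68 and 1.82, and none of these changes from 0 h passed the test. Array brightness at 2 h ran from 8.84 to 10.64 in IR and from 9.21 to 10.36 in sham control. At 24 h it ran from 7.40 to 8.83 in IR and from 9.92 to 10.71 in sham control. Whether the differences follow brightness over time was not tested.

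The change of the difference itself passed the test between 0 h and 2 h for 1 miR of 159 (0.629%), miR-125a-3p. Its difference was 2.17 at 0 h and 0.50 at 2 h, a change of 1.68 (limma adjusted p = 0.0208), and 1.46, 1.11 and 0.32 at 24 h, 48 h and 7d. Without sham control replicate 5 no miR passed this test, and 11 passed an unadjusted p under 0.05. miR-125b* had 0.36 at 2 h, and its change of 0.99 did not pass (limma adjusted p = 0.53). Between 0 h and 24 h the change passed for 10 miRs (6.29%), none of them among the 11 called at 0 h. The largest was miR-21, at 0.04 at 0 h and 2.21 at 24 h, and miR-20a went from 0.29 to 1.21 and miR-146b from 0.0046 to 0.83. In the other direction were miR-30e*, from -0.29 to -1.49, miR-136*, from -0.05 to -0.95, and miR-130a, from -0.11 to -0.79; miR-30e* and miR-136* are named for their size of change.

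**Figure D5:**
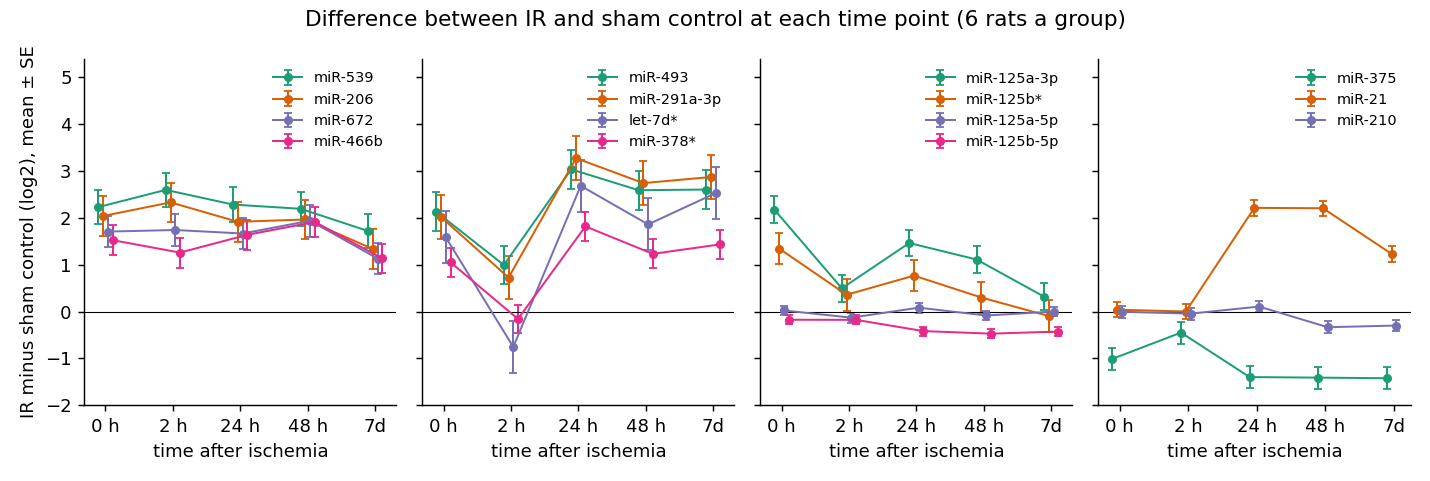
The log2 difference of IR minus sham control is drawn with its SE (limma, 6 rats per group) for each time point on the x axis, from 0 h to 7d with equal spacing, with each line a miR. miR-539, miR-206, miR-672 and miR-466b stay above 1 throughout, miR-125a-3p drops from 2.17 to 0.50 at 2 h, and miR-21 rises from 0.04 at 0 h to 2.21 at 24 h.

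No miR passed the test between the sham control group at 0 h and the later ones, which does not show that they were equal. Set against the mean of the 4 later sham control groups, 0 of 159 miRs were called in limma and 0 passed the adjusted p, with 23 of the 159 at an unadjusted p under 0.05. When the IR arrays at 0 h were compared with the later sham control groups in place of their own, 13 miRs were called (8.18%), 11 higher and 2 lower, and all 11 were among them. The 6 IR arrays are the same as before, so that this is no independent repeat of the calls. Brightness ran from 8.59 to 10.88 on them and from 9.21 to 11.15 on the later sham control arrays. Against these groups miR-539 differed by 2.11, miR-206 by 1.76, miR-672 by 1.47, miR-466b by 1.24 and miR-125a-3p by 2.27.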

How the data were processed

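The deposited scanner files hold, per rat miR, a total gene signal and a detection flag. Per the file headers this intensity was made with Feature Extraction 9.5.3.1 (probe positions on rn4), is background-subtracted and is not normalized between arrays. The authors' own processed log2 values were given too, for 210 rat miRs. All 12600 equal log2 total signal, with 1 as the least signal, minus a constant per array (tolerance 0.001), with column medians from -0.856 to -0.409. It served as an alternative.

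Each array was scaled by its 75th percentile, taken over 57 miRs that every one of the 60 arrays detected. A floor of 6.20 signal units was set before log2 was taken. A miR was tested if at least 1 of 10 groups detected it on all 6 arrays, which left 159, and the test was made with limma 3.58.1 (R 4.3.3) over all 60 arrays. The study's methods give the thresholds, a fold of at least 2 and a corrected p of at most 0.05, but no test for miRs. The same fit gave the contrasts between time points. Array measures were compared by exact permutation of 6 against 6 arrays, with 0.00216 as the smallest p possible. The number of arrays limits the precision. Named miRs were those called, those whose groups did not overlap and up to 3 of the highest members of each list, with miR-210 in any case. The miRs and lists were chosen with earlier results of these data known. In simulated data for IR 0 h against sham control 0 h over 159 miRs, 368 of 400 differences of 1.5 and 186 of 400 of 1 were called in the right direction. Of 2780 unchanged miRs, 4 and 5 were called. The adjusted p with any fold was passed by a median of 2 and 1 unchanged miRs per draw, and by at most 59 and 52 in 1 draw. The noise was drawn independently for each miR, so that miRs moving together on an array were not simulated. Alternatives changed the signal, scaling, floor, filter, samples, covariates and threshold.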

Additional observations from a re-analysis of the deposited data

Results flagged for a closer look

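Single arrays stood off from the other 5 of their group for some named miRs, by Dixon's gap ratio in groups of 6. Of 133 groups examined over 70 named miRs, 16 were marked, and chance marks about 1 in 20. Sham control replicate 1 was low for miR-206 at 2.63, miR-466b at 5.33, miR-96 at 11.46, miR-21 at 7.501, miR-29b at 9.39, miR-30e at 7.92 and miR-106b at 6.27, and high for let-7c at 10.58. Sham control replicate 6 was high for miR-126 at 5.26 and let-7a at 10.35 and low for miR-154 at 6.24. IR replicate 1, the brightest IR array, was low for miR-493 at 3.35, miR-328 at 6.75 and miR-207 at 3.11, IR replicate 2 was high for miR-93 at 6.23, and IR replicate 3 was high for miR-154 at 6.95.

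Differences that themselves changed between time points, by limma with Benjamini-Hochberg adjustment, were those of miR-125a-3p, 1.68 larger at 0 h than at 2 h, and, at 0 h minus 24 h, of miR-20a at -0.92, miR-21 at -2.17, miR-146b at -0.82 and miR-130a at 0.68.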

How the results depend on the processing

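The count of 11 called miRs was 34 with normexp, 79 with no normalization between arrays, 3 with a floor at the highest detection limit, 2 over the 57 miRs detected on all 60 arrays, 2 over those on all 12, 6 over those on all 6 of a 0 h group, 18 over those on at least 1 array, 5 from the 12 arrays alone, 7 with slide as a block, 3 by exact permutation, 20 with no fold threshold, 17 at a fold of 1.5, 25 in the authors' table, 2 from scan 1 alone (chosen after seeing the data), and 9 to 16 on leaving out 1 array (9 without IR replicates 2 or 3, 16 without IR replicate 1). The split of 10 higher and 1 lower was 4 and 75 without normalization, 14 and 11 in the table and 8 and 4 under quantile normalization, where the median of all 159 moved to -0.98, -0.25 and -0.18; it was 34 and 0 with normexp, at a median of 0.68.

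The 1 miR whose difference changed between 0 h and 2 h was 0 with normexp (15 at an unadjusted p under 0.05), quantile normalization (25), no normalization (101), the median as scale (13), a floor of 1 (11) or 0.01 (11), the highest limit as floor (5), the 57 miRs (2), those on all 12 arrays (7) and brightness as a covariate (6), and it was 5 with all rat miRs as scale and 2 with all 6 arrays of a 0 h group, slide as a block, slide as a random block or scan as a block. Leaving out 1 array gave 0 to 7, with 7 without IR replicate 1 and 0 without sham control replicate 5. Added after seeing the data, it was 0 without scan 3 (8) or the 3 dimmest IR arrays (8) and 7 without both replicates 1. The 10 between 0 h and 24 h were 2 with the mean over probes, 1 with normexp, 54 with no normalization, 16 with the median as scale, 4 over the 57 miRs, 6 with brightness, 16 without the 3 dimmest IR arrays and 9 to 14 on leaving out 1 array. The cause of these shifts was not tested beyond the smaller number of miRs or arrays.

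The brightness difference was -0.74 over all rat miRs (exact p = 0.115) and -1.37 to -0.91 without 1 array (exact p from 0.00433 to 0.0584), missing 0.05 without IR replicates 3, 4 or 6 or sham control replicates 2 or 6. The difference in detected miRs was -24.4 to -1.83. Directions turned for miR-375 with normexp (0.88), let-7i with all rat miRs as scale (-0.065), no normalization (-0.81) and the table (-0.054), miR-20a with all rat miRs (-0.035), quantile normalization (-0.075), no normalization (-0.78) and the table (-0.024), and without normalization for miR-181d (-0.51), miR-347 (-0.065) and miR-378* (-0.012). Same-numbered arrays correlated at -0.18 to 0.60, over 0.1 in 4 of 6 pairs, 3 of 6 IR arrays matched best with their own number, and the number follows the scan in both groups. The arrays were treated as unpaired, since not every pair was over 0.1 and no label ties them; with a replicate block 10 miRs were called and 2 passed between 0 h and 2 h. Values of miRs at the floor are bounded by signal over background.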

Other observations

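Beside the miRs tested, miR-1 had a difference of 1.39, the liver miR miR-122, named after its value was seen, of 1.15 and miR-223, a miR of myeloid cells, of 1.02, each detected on 1 or 2 of 6 IR arrays and 1 of 6 sham control arrays and without a test. miR-207 at 1.55 (SE 0.72), miR-346 at 1.26 (SE 0.63) and miR-333 at 1.03 (SE 0.39) exceeded a factor of 2 in the means but not the adjusted p of limma, at 0.163, 0.199 and 0.0757.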
